A study of Mus musculus with 4 samples.

Results

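Replication-dependent histone genes encode the core histones H2A, H2B, H3 and H4, around which DNA is wound, and the linker histone H1, which binds the DNA between nucleosomes. They were taken here as every row whose symbol begins with Hist followed by a cluster number from 1 to 4, which gave 68 genes of the 22700 gene rows in each library. By type these were 6 genes for H1, 18 for H2A, 19 for H2B, 12 for H3 and 13 for H4. In the reference annotation 54 lie on chromosome 13, 10 on chromosome 3, 3 on chromosome 11 and 1 on chromosome 6. Folds are given for the 65 genes that reached 20 normalised reads in at least 1 library. The other 3 were Hist3h2bb-ps, a pseudogene with at most 17.1 normalised reads, Hist1h1t, the testis H1, with at most 4.3, and Hist1h2aa, at 0 in every library.

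In the study, marrow taken from male mice at 12 weeks of age was cultured for 7 to 8 days, with 1 library in each of 4 groups. Cells of type 2 diabetic mice (BKS.Cg-m+/+leprdb/J, db/db) and of control mice (BKS.Cg-m+/+leprdb+/J, db/+) were each grown in 20 ng/ml of GM-CSF or in 10 ng/ml of M-CSF, the growth factors from which macrophages are raised in culture. The db allele is a mutation of the leptin receptor gene, carried by both strains, and diabetic mice have no normal copy. Ribosomal RNA was removed from the total RNA, and both ends of each fragment were read on a HiSeq2000. The sources used here do not give whether animals were pooled or strand was kept.

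Replication-dependent histone mRNAs are made in S phase, when new DNA must be packaged, and are destroyed when replication ends. Most end not in a poly(A) tail but in a short stem-loop, bound by the stem-loop binding protein Slbp, which guides their 3' cleavage, export, translation and decay. RNA depleted of ribosomal RNA keeps such transcripts, whereas selection of poly(A) tails loses most of them.

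The 4 libraries held 25603392 to 28622697 reads. The macrophage list of 9 measured genes, among them Csf1r, the M-CSF receptor, and Emr1, was above 20 normalised reads throughout, with a summed level of 144950 in db/db and 141130 in db/+ GM-CSF, and of 367110 in db/db and 394760 in db/+ M-CSF. Stromal and neutrophil marker genes were much higher in the M-CSF libraries, and mast cell and T and NK cell sums were higher in the GM-CSF ones. The stromal list of 12 genes summed to 335.7 normalised reads in db/db and 301.8 in db/+ GM-CSF, and to 73505 in db/db and 26646 in db/+ M-CSF. Lum was at 0 in both GM-CSF libraries, and Col3a1 and Dcn were at 0 in the db/db one. The neutrophil list of 9 genes summed to 914.6 and 784.1 in db/db and db/+ GM-CSF and to 16755 and 15984 in db/db and db/+ M-CSF. Among its members Mpo and Camp were at 0 in the db/db GM-CSF library and Prtn3 and Ctsg in the db/+ one. The mast cell and basophil list of 6 genes summed to 2576.6 in db/db and 2631.2 in db/+ GM-CSF, and to 261.4 in db/db and 233 in db/+ M-CSF. Its genes with folds went both ways. On the log2 scale, GM-CSF over M-CSF in limma, Kit was at 4.54, Gata2 at 0.20, Cpa3 at -2.23 and Mcpt8 at -3.94. The T and NK cell list of 6 measured genes, 2 of which reached 20 normalised reads, summed to 66.7 in db/db and 57.2 in db/+ GM-CSF, and to 16.5 in db/db and 25.8 in db/+ M-CSF. In such bulk RNA, fewer cells of a type and less RNA per cell cannot be told apart.

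The 3' stem-loop is shown because its letters set H4 apart from the other histone types. All 68 genes were matched to GENCODE M21 transcripts (GRCm38), and 46 hold a stem-loop of 16 bases that matches the histone stem-loop consensus, against 21 of 21810 other protein-coding genes (0.0963%). The genes with a stem-loop were 4 of 6 for H1, 11 of 18 for H2A, 10 of 19 for H2B, 9 of 12 for H3 and 12 of 13 for H4. In the other 22 these letters are not in the annotated transcript, which for some, such as Hist1h2bq and Hist1h4k, holds the coding sequence alone. Capitals mark the 3 inner letters of each arm of the stem, and 5 bases stand on each side of it.
Hist1h4n, chr13:21831793-21831818, minus strand: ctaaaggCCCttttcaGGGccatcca
Hist4h4, chr6:136803993-136804018, minus strand: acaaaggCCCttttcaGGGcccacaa
Hist1h4b, chr13:23757361-23757386, plus strand: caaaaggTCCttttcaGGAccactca
Hist1h1c, chr13:23739507-23739532, plus strand: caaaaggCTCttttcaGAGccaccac
Hist2h2aa1, chr3:96246027-96246052, plus strand: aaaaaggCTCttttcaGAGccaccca
Hist1h2bm, chr13:21722501-21722526, plus strand: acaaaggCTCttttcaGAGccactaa
Hist2h3c1, chr3:96247322-96247347, plus strand: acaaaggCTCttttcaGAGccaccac
Every stem-loop of H1, H2A, H2B and H3, 34 in all, had CTC pairing with GAG at these positions. No H4 stem-loop did: 10 had CCC with GGG, and 2, those of Hist1h4b and Hist1h4j, had TCC with GGA.

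Promoters of the same genes differ between types as well. RefSeq promoters (GRCm38.p6) could be matched for 61 of the 68 genes, and motifs were looked for on both strands in the 250 bases before the start of transcription. CCAAT was present in 50 of the 61, against 33.8% of all 32851 promoters, and in only 3 of 12 H4 promoters. GGTCCG, the element of H4 promoters, was present in 11 of 61, against 6.72% of all promoters, and 9 of these were among the 12 H4 promoters. The octamer ATTTGCAT, a site of POU factors, was present in 7 of 17 H2A and 6 of 16 H2B promoters and in none of the other types, against 1.6% of all promoters. Promoters of neighbouring H2A and H2B genes on opposite strands can overlap, as those of Hist1h2ah and Hist1h2bk do. The same site can then be counted for both types. AAACACA, the H1 box, was present in 5 of 6 H1 promoters and in 9 of the 61, against 6.25% of all. TATAAA was present in 29 of 61, against 12.4%. Matches of different motifs shared letters in 1 of the 61, Hist1h3i, where CCAAT runs into GGTCCG on the other strand. In the following 120 bases before the start, motif letters on either strand are in capitals, and the genes shown are H4 genes of different clusters beside an H1 and an H2B gene.
Hist1h4n, chr13:21832198-21832317, minus strand: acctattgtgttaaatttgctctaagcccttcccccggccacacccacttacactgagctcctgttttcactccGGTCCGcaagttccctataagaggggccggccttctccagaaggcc
Hist4h4, chr6:136804432-136804551, minus strand: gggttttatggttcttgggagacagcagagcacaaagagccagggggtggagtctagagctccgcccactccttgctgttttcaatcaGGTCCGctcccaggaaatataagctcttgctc
Hist1h1b, chr13:21780626-21780745, minus strand: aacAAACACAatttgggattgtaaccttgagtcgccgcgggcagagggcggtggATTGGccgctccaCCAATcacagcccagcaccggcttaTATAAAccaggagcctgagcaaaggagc
Hist2h2bb, chr3:96269580-96269699, plus strand: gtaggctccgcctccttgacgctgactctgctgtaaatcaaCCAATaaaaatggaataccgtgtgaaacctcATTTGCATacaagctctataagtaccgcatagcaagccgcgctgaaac
These motif matches describe the sequences only.

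Copies of one histone gene share long stretches, so reads can be divided between them in ways that the files do not show. Of the 68 genes, 62 shared at least 1 window of 50 bases with another, and 31 shared 50% or more of their windows. Hist1h2bq and Hist1h2br shared 100% and carried the same value in all 4 libraries. Hist2h2aa2 shared 100% of its windows with Hist2h2aa1, and Hist1h4m shared 89.8% with Hist1h4n. Another gene overlaps 24 of the 68, among them all 18 H2A genes. Whether strand was kept is not given, so reads of the overlapping genes may be mixed. All genes overlapping Hist1h1e, Hist1h2be and Hist2h3c1 lie on the same strand, where strand would not separate the reads. Because copies share reads, sums over a histone type are given beside single genes.

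Together the histone genes took 0.154% of the normalised reads in db/db GM-CSF, 0.151% in db/+ GM-CSF, 0.299% in db/db M-CSF and 0.339% in db/+ M-CSF. H2A held the greatest part of that in every library, between 31.3% and 35.4%, mainly through Hist2h2aa1 and Hist2h2aa2. Per kilobase of coding sequence, Hist2h2aa1 averaged 21450 normalised reads over the 4 libraries and Hist2h2aa2 18680. Below them came Hist1h1c at 9110, Hist1h4n at 8032 and Hist1h4d at 6126 on the same scale. Coding length was 639 bases in Hist1h1c and 312 in the other 2, but their annotated transcripts held 1560, 430 and 1138 bases in this order. The ranking therefore holds for coding length and would differ by transcript length. At the low end of the genes with folds stood the H2B gene Hist3h2ba at 59.4.

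**Figure D1:**
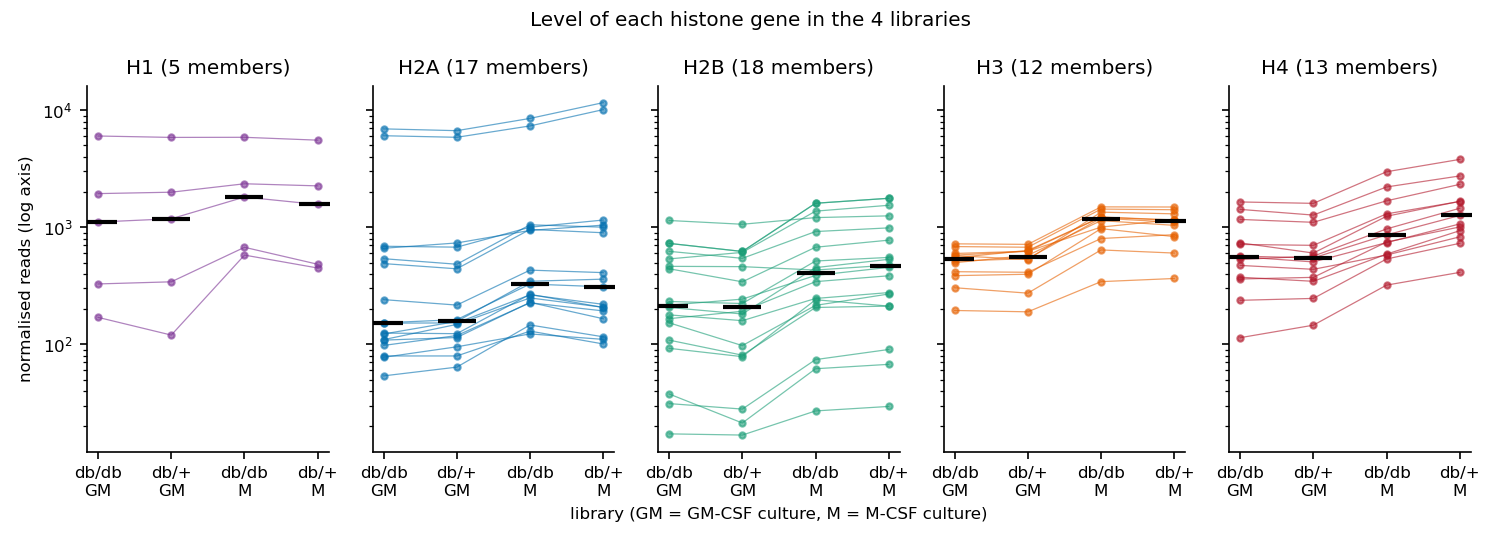
Level of each of the 65 histone genes in the 4 libraries, in normalised reads on a log axis, with 1 panel per histone type, thin lines joining the values of a gene and black bars at the median. Most lines are higher in the M-CSF libraries, the highest H1 line, Hist1h1c, is level, and all 13 H4 lines are lower in db/db M-CSF than in db/+ M-CSF.

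The first comparison asked how histone genes differ between cells of diabetic and control mice grown in M-CSF. With 1 library on each side there is no test, and ratios are given with exact 95% intervals on read pairs, which cover counting error only and are too narrow where genes share reads. The H4 genes stood together at the low end in db/db cells. Summed over the type, H4 was at 14758 normalised reads in db/db and 19890 in db/+ M-CSF, a ratio of 0.742 (0.721 to 0.764). H3, its partner in the nucleosome core, was at 12810 in db/db and 12471 in db/+, a ratio of 1.03 (0.993 to 1.06). The sum of H4 over that of H3 was thus 1.15 in db/db and 1.59 in db/+ M-CSF, beside 1.48 in db/db and 1.36 in db/+ GM-CSF.

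In the M-CSF pair all 13 H4 genes were lower in db/db cells. Their log2 folds, here on log2(value + 5), lay between -0.66 and -0.31 around a median of -0.44, where the median over all 13642 genes tested was 0.02. Over all genes 45.9% were lower. Hist1h4n, the H4 gene with the highest level, had 1644.9 normalised reads in db/db and 1600.5 in db/+ GM-CSF, and 2980 in db/db and 3798.9 in db/+ M-CSF. The GM-CSF libraries were alike and low, and of the M-CSF ones db/+ was the higher, with a db/db over db/+ ratio of 0.784 (0.735 to 0.837).

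Hist1h4d had 1421.1 and 1270.8 in db/db and db/+ GM-CSF, and 2209.7 and 2744.1 in db/db and db/+ M-CSF. Hist1h4h had 1166.2 and 1102.5 in db/db and db/+ GM-CSF, and 1682.6 and 2325.6 in db/db and db/+ M-CSF. Both followed the same order as Hist1h4n, with M-CSF ratios of 0.805 and 0.724. The lowest ratio was that of Hist1h4b, chosen after its values were seen, at 374.4 and 345.5 in db/db and db/+ GM-CSF and at 589.9 and 935 in db/db and db/+ M-CSF, a ratio of 0.631 (0.546 to 0.724). Its stem-loop is 1 of the 2 with TCC. The H4 genes outside chromosome 13 were lower too: Hist2h4 on chromosome 3 had a ratio of 0.683 (0.606 to 0.768) and Hist4h4 on chromosome 6 one of 0.745 (0.674 to 0.823). Hist4h4 shares none of its windows of 50 bases with another histone gene and Hist2h4 1.01%. The remaining named H4 genes, Hist1h4i, Hist1h4j, Hist1h4f and Hist1h4a, had ratios of 0.779, 0.735, 0.693 and 0.699.

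Between the genotypes in M-CSF no histone gene reached a 2-fold difference in either direction. Over all genes, 5.05% reached it on the higher side in db/db and 0.777% on the lower side. The interval lay below 1 for 20 of 65 genes, against 14.3% of all genes, and these were all 13 H4 genes, 3 H2A, 3 H2B and 1 H3. It lay above 1 for 7 of 65, against 19.8% of all genes, and these were 4 of the 5 H1 genes, 2 H2A and 1 H3. The H4 count was 13 of 13 also when reads were scaled by library total or by DESeq2 size factors.

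The linker histones went the other way: in M-CSF all 5 H1 genes with folds were higher in db/db cells, at a median log2 fold of 0.21, where 54.0% of all genes were higher. Hist1h1b, which encodes H1.5, had 328.1 normalised reads in db/db and 342.1 in db/+ GM-CSF, and 674.4 in db/db and 483.2 in db/+ M-CSF, a ratio of 1.40 (1.19 to 1.64). Hist1h1a, which encodes H1.1, had 170 and 120 in db/db and db/+ GM-CSF, and 578.6 and 448.9 in db/db and db/+ M-CSF, a ratio of 1.29 (1.09 to 1.53). In the M-CSF pair both genes were highest in db/db cells. Hist1h1c and Hist1h1e, the H1 genes with the highest levels, differed little, with M-CSF ratios of 1.06 and 1.04, and Hist1h1d stood at 1.16.

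H2A genes were mixed. Hist2h2aa1 had 6923.8 normalised reads in db/db and 6684.6 in db/+ GM-CSF, and 8505.2 in db/db and 11603 in db/+ M-CSF, a genotype ratio in M-CSF of 0.733 (0.706 to 0.761). Hist2h2aa2, its near copy, gave 0.726 (0.697 to 0.756). The other 16 H2A genes summed to 6689.2 in db/db and 6495.3 in db/+ M-CSF, a ratio of 1.03 (0.983 to 1.08), beside a ratio of 0.799 for all 18 together. The split into the pair and the rest was made after their values were seen. Of the named H2A genes, Hist3h2a was also lower in db/db M-CSF, at 0.868 (0.773 to 0.974), and Hist1h2ak was at 0.960, Hist1h2ah at 1.26, Hist1h2an at 1.29 and Hist2h2ab at 1.11.

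In M-CSF 17 of 18 H2B genes were slightly lower in db/db cells, against 45.9% of all genes, at a median log2 fold of -0.14. The H2B sum was at 10596 in db/db and 11668 in db/+, a ratio of 0.908 (0.876 to 0.941). Only for Hist1h2bq, Hist1h2br and Hist2h2bb did a gene's own interval lie below 1, and the first pair has equal values. The exception was Hist1h2bm, with a log2 fold of 0.18. H3 genes were higher in 9 of 12 cases with a median of 0.06, where 54.0% of all genes were higher. Hist1h3c had an interval above 1, at a ratio of 1.17, and Hist1h3e one below 1, at 0.864.

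**Figure D2:**
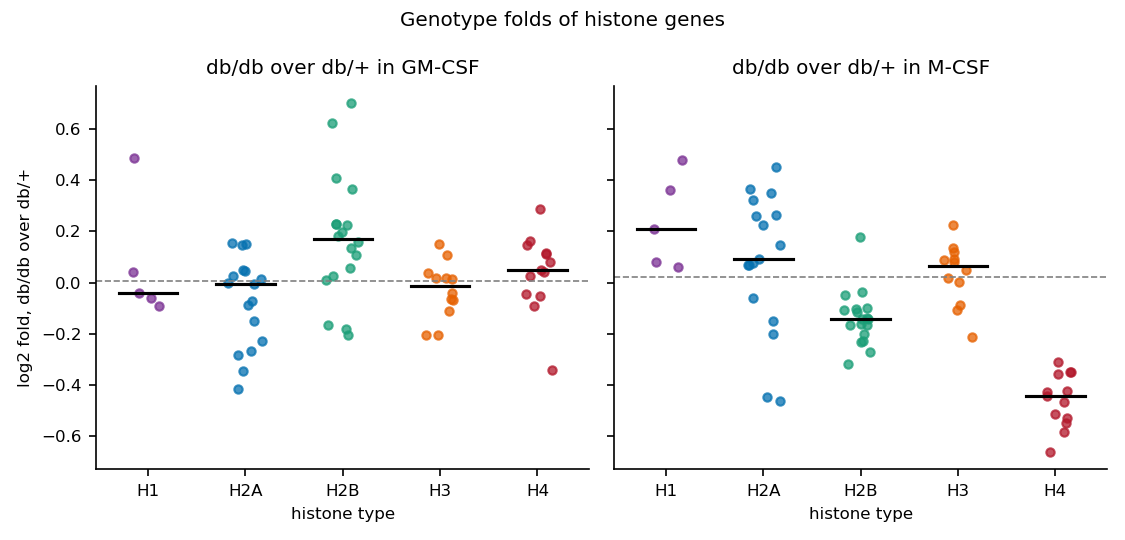
Log2 fold of each of the 65 histone genes, db/db over db/+, by histone type, in GM-CSF on the left and in M-CSF on the right, with black bars at the median of each type and a dashed line at the median of all 13642 genes. In M-CSF the 13 H4 genes lie between -0.66 and -0.31, below every H1, H3 and H2B gene but one, Hist1h2bf at -0.32, the H2A genes Hist2h2aa1 at -0.45 and Hist2h2aa2 at -0.46 lie within that range, and in GM-CSF the types overlap.

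In GM-CSF the genotypes were close. All histone genes summed to 47277 normalised reads in db/db and 46046 in db/+, a ratio of 1.03 (1.01 to 1.05). No histone gene reached a 2-fold difference, against 0.586% of all genes on the higher side and 0.476% on the lower side. The interval lay above 1 for 3 of 65 genes, against 4.28% of all genes, and below 1 for 0, against 2.43%. The 3 were Hist1h2be, Hist1h2bf and Hist4h4, at ratios of 1.29, 1.57 and 1.22, named after their values were seen. Of 18 H2B genes 15 were higher in db/db GM-CSF, at a median log2 fold of 0.17, where 52.4% of all genes were higher. H4 genes were higher in 9 of 13, with a median of 0.05, and their sum gave a ratio of 1.05 (1.01 to 1.10). H1, H2A and H3 sums had intervals that held 1.

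Across both cultures, limma with genotype and culture as terms called no histone gene for genotype at an adjusted p under 0.05, nor did edgeR's quasi-likelihood test or DESeq2 on recovered reads. Over all genes, limma called 0.00733% higher and 0% lower at that adjusted threshold. At an unadjusted p under 0.05, limma and edgeR each had 2 of 65 histone genes and DESeq2 0. The counts over all 13642 genes at this unadjusted threshold were 603 in limma, 826 in edgeR and 112 in DESeq2. The limma genotype coefficient averages the 2 cultures, and the design, with 1 library per group, has no test of whether the genotype difference differs between them.

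The second comparison asked how GM-CSF and M-CSF cultures differ. Histone genes of every type were lower in GM-CSF, in both genotypes. All members summed to 47277 normalised reads in GM-CSF and 71985 in M-CSF for db/db cells, a ratio of 0.657 (0.646 to 0.668). For db/+ cells they summed to 46046 in GM-CSF and 82541 in M-CSF, a ratio of 0.558 (0.549 to 0.567). In 63 of 65 genes both GM-CSF libraries lay below both M-CSF libraries, against 38.9% of all genes.

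In limma's culture effect, with 1 residual degree of freedom and 12.9 prior ones, 59 of 65 histone genes fell in GM-CSF and 0 rose at an adjusted p under 0.05. Over all genes 27.3% fell and 29.8% rose. The median log2 fold of the histone genes was -0.99, beside 0.02 over all genes. Passing were 4 of 5 H1, 15 of 17 H2A, 15 of 18 H2B, 12 of 12 H3 and 13 of 13 H4 genes. At least 2-fold lower were 29 of 65 in db/db, against 15.8% of all genes, and 34 of 65 in db/+, against 15.7%. None was at least 2-fold higher, against 11.3% of all genes in db/db and 12.0% in db/+. With reads scaled by library total, which lowers the median of all genes by 0.36 in db/db and 0.33 in db/+, the db/db count was 45. The share of all genes under that scaling was not computed.

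H3 genes formed the most even group, with culture folds in limma between -1.26 and -0.84. Hist2h3c1 had 721.9 normalised reads in db/db and 714.5 in db/+ GM-CSF, and 1493.5 in db/db and 1489.5 in db/+ M-CSF. The genotypes were level in each culture, and the log2 fold between cultures was -1.05 ± 0.10 (SE, limma adjusted p = 4.81e-07). Hist2h3c2, its near copy, gave -1.06, Hist2h3b -1.26 and Hist1h3c -1.19, and the smallest changes in this type were those of Hist1h3e at -0.84 and Hist1h3g at -0.87, all past the threshold in limma.

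Among H4 genes the culture fold ranged from -1.46 for Hist1h4i to -0.60 for Hist1h4a. Hist1h4n, with the levels given above, fell by 1.05 on the log2 scale (SE 0.10, limma adjusted p = 4.52e-07). The summed H4 level had a GM-CSF over M-CSF ratio of 0.603 in db/db and 0.425 in db/+. At least 2-fold lower were 3 of 13 H4 genes in db/db, against 15.8% of all genes, and 12 of 13 in db/+, against 15.7%. These ratios share no library with each other, and the difference between them was not tested.

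H2B held the gene with the smallest p, Hist2h2bb, and also genes that did not pass. Hist2h2bb had 536.8 normalised reads in db/db and 610.1 in db/+ GM-CSF, and 1373.2 in db/db and 1540.9 in db/+ M-CSF, and fell by 1.34 on the log2 scale (SE 0.10, limma adjusted p = 4.95e-08). The GM-CSF libraries lay well below the M-CSF ones. Hist1h2bq and Hist1h2br, which cannot be separated, each had 728.3 and 621.4 in db/db and db/+ GM-CSF and 1603.3 and 1768.2 in db/db and db/+ M-CSF. Hist1h2bm gave a culture fold of -1.36.

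Unlike these, Hist1h2bc had 1142.5 and 1061 in db/db and db/+ GM-CSF and 1209.4 and 1251.7 in db/db and db/+ M-CSF, with a log2 fold of -0.16 ± 0.10 (SE, limma adjusted p = 0.190). Hist2h2be had 463.7 and 461 in db/db and db/+ GM-CSF and 431.3 and 474.6 in db/db and db/+ M-CSF, at 0.03 ± 0.13 (SE, limma adjusted p = 0.859). In neither gene did the GM-CSF values stand apart from the M-CSF values as those of Hist2h2bb did. With reads scaled by library total, which lowers the median of all genes as given above, Hist2h2be stood at -0.25 in db/db and -0.36 in db/+. Hist3h2ba, at a low level, also missed the threshold.

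H1 spanned the widest range. Hist1h1c, which encodes H1.2, had 6018 normalised reads in db/db and 5854.6 in db/+ GM-CSF, and 5866.8 in db/db and 5545.2 in db/+ M-CSF. The 4 libraries lay close together, with a culture fold of 0.06 ± 0.08 (SE, limma adjusted p = 0.576), and with reads scaled by library total the fold was -0.32 in db/db and -0.25 in db/+. The lowest fold of all histone genes was that of Hist1h1a, with the levels given above, at -1.80 ± 0.16 (SE, limma adjusted p = 2.83e-07). Between them Hist1h1e, which encodes H1.4, had 1938.6 and 1993 in db/db and db/+ GM-CSF and 2352.6 and 2257.1 in db/db and db/+ M-CSF, a log2 fold of -0.23 (limma adjusted p = 0.0381), which DESeq2 did not call (adjusted p = 0.0963). Hist1h1d gave -0.56 and Hist1h1b -0.76, both past the threshold. As a type, the H1 sum had a GM-CSF over M-CSF ratio of 0.848 in db/db and 0.922 in db/+, and H3 had 0.470 in db/db and 0.496 in db/+.

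H2A genes fell by unequal amounts. The limma culture folds were -0.55 for Hist2h2aa1, -0.53 for Hist2h2aa2 and -0.65 for Hist3h2a, against -1.32 for Hist1h2ak and -1.09 for Hist1h2ah, all past the threshold in limma. In DESeq2 Hist1h2ah was not called (adjusted p = 0.0764). Hist1h2ak had 122.6 and 157 normalised reads in db/db and db/+ GM-CSF, and 345.9 and 360.5 in db/db and db/+ M-CSF, which put both GM-CSF libraries below both M-CSF ones. Hist1h2an and Hist2h2ab, with folds of -0.50 and -0.42, did not pass.

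**Figure D3:**
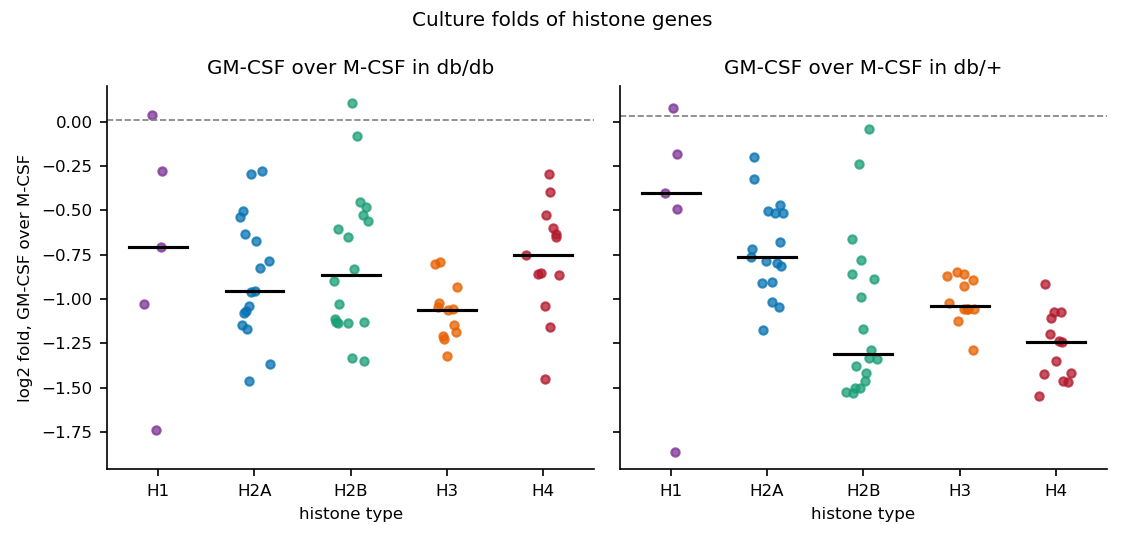
Log2 fold of each of the 65 histone genes, GM-CSF over M-CSF, by histone type, in db/db on the left and in db/+ on the right, with black bars at the median of each type and a dashed line at the median of all 13642 genes. Nearly all points lie below the dashed line, the H4 median is -0.75 in db/db and -1.24 in db/+, and the highest H1 point in each panel is Hist1h1c.

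**Figure D4:**
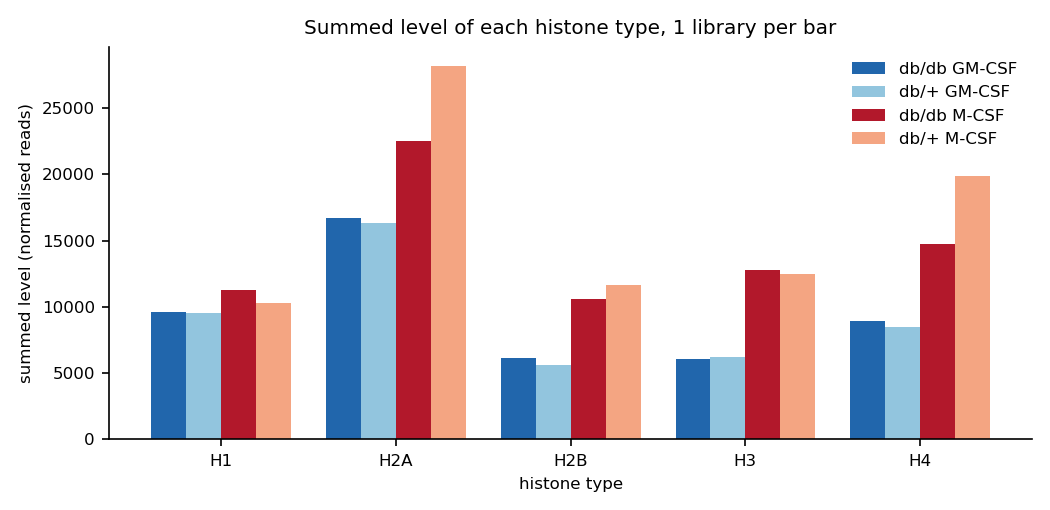
Summed level of each histone type in normalised reads, with 1 bar for each library and an axis that starts at 0. The GM-CSF bars of a type are close to each other, and in M-CSF the db/db bar is below the db/+ bar for H2A, H2B and H4.

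Some histone genes also carry a polyadenylation signal, AATAAA or ATTAAA, in the last 50 bases of the annotated transcript, as 14 of the 68 did. Only 1 transcript of each gene was searched. Transcripts with a stem-loop were taken first, and of several the shortest, so a signal in a longer transcript could be missed. The 13 of these with folds had a median GM-CSF over M-CSF log2 fold of -0.60 in db/db and -1.05 in db/+, beside -0.96 in db/db and -1.02 in db/+ for the 52 without the signal. Hist1h1c and Hist2h2be, which did not pass between cultures, carry it, and so do Hist1h4i and Hist1h4j, which were among those that fell most. Hist1h2bc does not. The 45 genes with a stem-loop and folds had medians of -0.83 in db/db and -1.02 in db/+, and the 20 without one -1.12 in db/db and -1.02 in db/+. Some transcripts without these elements, among them those of Hist1h2ai, Hist1h2bq, Hist1h3h and Hist1h4k, are annotated as coding sequence alone. What follows the coding sequence could not be searched in them, so the groups also differ in how fully transcripts are annotated.

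Of 28 genes of S phase and replication, limma called 4 higher and 9 lower in GM-CSF, against 29.8% higher and 27.3% lower over all genes, with a median culture fold of -0.23. Ccne1, the cyclin E of the entry into S phase, had 253.9 and 233.3 normalised reads in db/db and db/+ GM-CSF and 88 and 49.5 in db/db and db/+ M-CSF, a log2 fold of 1.80 (limma adjusted p = 1.36e-05). Tk1, thymidine kinase, fell by 1.10 and Pcna, the sliding clamp of the replication fork, rose by 0.26, and Rrm1, a subunit of ribonucleotide reductase, had a fold of -0.24 that did not pass. In the M-CSF genotype comparison 18 of the 28 were higher in db/db with a median of 0.20, against 54.0% of all genes, and none was 2-fold apart.

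Against the same shares, of 18 mitosis genes limma called 1 higher, Mki67, the proliferation antigen Ki-67, at 0.56, and 4 lower, among them Top2a, topoisomerase II alpha, at -0.29, Cdc20, an activator of the anaphase-promoting complex, at -0.77, and Cenpf at -0.63. In M-CSF 16 of the 18 were higher in db/db cells, at a median log2 fold of 0.23, against 54.0% of all genes. In this comparison, then, medians of the replication and mitosis lists lay above that of all genes, 0.02. The medians of H1, H2A and H3, at 0.21, 0.09 and 0.06, lay above it too, and those of H4 and H2B below it.

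Among 19 measured genes for histone pre-mRNA processing and decay, limma called 2 higher and 6 lower in GM-CSF, against 29.8% and 27.3% of all genes. Zcchc11, a terminal uridylyltransferase, had 493.8 and 427.3 normalised reads in db/db and db/+ GM-CSF and 2140 and 2185.8 in db/db and db/+ M-CSF, and fell by 2.22 on the log2 scale. Its relative Zcchc6 fell by 0.39. Slbp, named for its role and not by the rule, had 994 and 941 in db/db and db/+ GM-CSF and 775.5 and 739 in db/db and db/+ M-CSF, a rise of 0.35 (limma adjusted p = 0.0115). Cpsf2 and Zfp473 had folds of 0.06 and 0.77 that did not pass. Between the genotypes in M-CSF this list had 11 genes higher and 8 lower, with a median of 0.01, and Sympk, the scaffold symplekin, also named after its values were seen, was at 1800.2 in db/db and 2337.9 in db/+, a ratio of 0.770 (0.708 to 0.837).

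Histone chaperones, which hand histones to and from DNA, had 3 of 18 higher and 5 lower in GM-CSF by limma, against the same 29.8% and 27.3% of all genes. Nap1l1 fell by 0.69 and Atrx by 0.23, Chaf1b, a subunit of the chromatin assembly factor CAF-1, rose by 0.75, and Ubn1 had 0.11 and did not pass. The list of replication-independent variants, which can be made outside S phase, had 1 of 11 higher and 3 lower, against the same shares. H2afx, which is in this list, has a transcript with the histone stem-loop. H1f0, the linker histone of resting cells, had 2831.5 and 2598.7 normalised reads in db/db and db/+ GM-CSF and 1611.1 and 1287.9 in db/db and db/+ M-CSF, and rose by 0.91. H3f3b, which encodes the H3.3 protein, fell by 0.26, H3f3a, which encodes the same protein, had 0.20 and did not pass, nor did H2afy3 at -1.13.

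**Figure D5:**
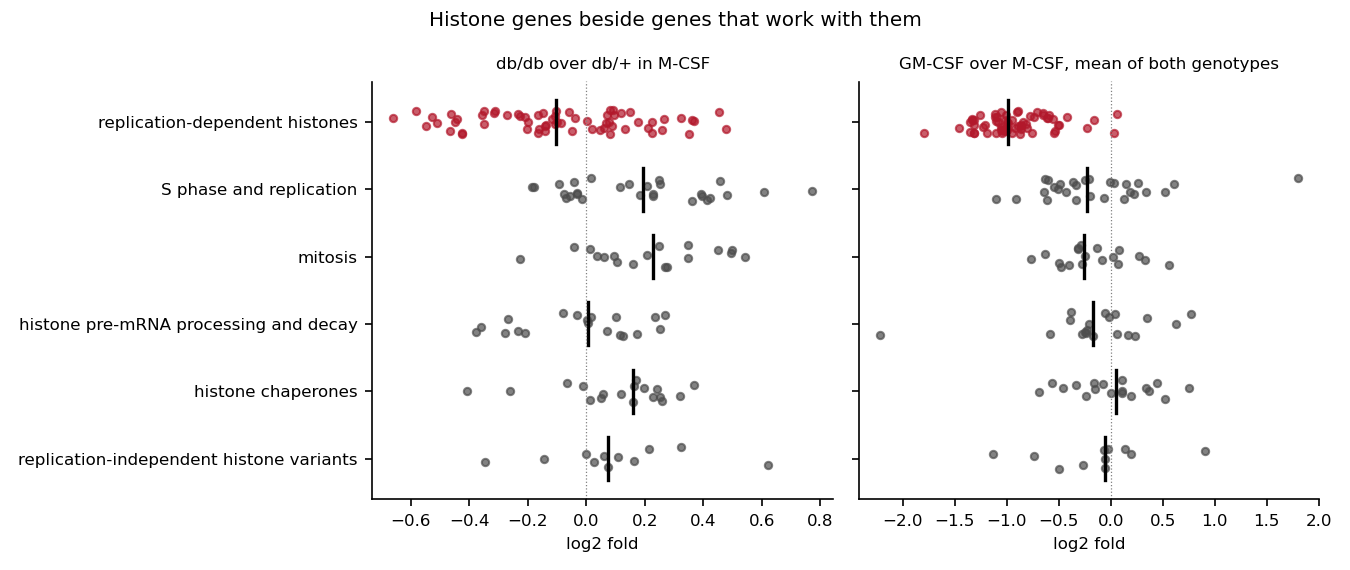
Log2 folds of the histone genes (red) beside 5 lists of genes that work with them (grey), for db/db over db/+ in M-CSF on the left and for GM-CSF over M-CSF, as the mean of both genotypes, on the right, with black bars at the medians. On the right the histone median is -0.99 and those of the lists lie between -0.26 and 0.05.

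Marker genes of other cells moved with both comparisons, and their part in the histone differences was not tested. In db/db M-CSF, beside the H4 difference, 10 of 11 stromal genes with folds were higher, against 54.0% of all genes. At least 2-fold higher were 9 of them, against 5.05% of all genes. The sums are given above, and none of the 12 was at 0 in either M-CSF library. Col1a2, a fibrillar collagen, had 22962 normalised reads in db/db and 8292.2 in db/+ M-CSF, Sparc, a matrix protein, 13327 in db/db and 4400 in db/+, and Acta2, smooth muscle actin, 15145 in db/db and 6124.5 in db/+. The erythroid list of 8 genes summed to 8371.1 in db/db and 5998.1 in db/+ M-CSF, with 2 of 6 at least 2-fold higher. The B and plasma cell list of 7 summed to 567.2 in db/db and 348 in db/+, with 3 of 6, both against the same 5.05%. The neutrophil list was near level, at the sums given above. In GM-CSF the stromal sums were low in both genotypes, with 7 of the 12 genes under 20 normalised reads in db/db and 8 in db/+. Beside the culture difference, all 11 stromal and all 9 neutrophil genes with folds were at least 2-fold lower in GM-CSF in both genotypes. Over all genes 15.8% were so in db/db and 15.7% in db/+. All 6 erythroid genes were lower in both, at least 2-fold for 5 in db/db and 6 in db/+. Tfrc, the transferrin receptor, fell by 1.80 on the log2 scale.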

How the data were processed

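The histone genes and the lists were chosen with earlier results of these data known. The authors deposited 1 file per library, in which each gene has a normalised signal: its reads over a size factor of that library, to 1 decimal. The submitters' processing notes name TopHat 1.2.0, edgeR and the mouse builds mm8 and mm9, with no role for either build. No counting tool or annotation is given in the sources used here, so whether reads matching several histone copies were dropped, divided or counted repeatedly is unknown.

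Dividing by the step of 1 read gave whole reads, within 0.1, for 100% of low values and for 99.5% to 99.9% of all values. Depth was 28622697 and 27216092 reads in db/db and db/+ GM-CSF and 27590739 and 25603392 in db/db and db/+ M-CSF. Mates appear to be counted separately, so intervals use pairs, and 3 pairs came to 5.23 to 6.73 normalised reads. The limma p-values rest on 1 residual degree of freedom from these 4 libraries and on 12.9 prior ones, drawn from the variance of all genes tested. As each group holds 1 library, spread within a group was not measured, and no p-value here reaches beyond these 4 libraries.

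Because the deposited unit is a signal, limma 3.58.1 (variance trend, additive model, Benjamini-Hochberg) on log2(value + 5) was the main test, for 13642 genes with 20 or more in a library. edgeR 4.0.16 and DESeq2 1.42.0 on recovered reads were alternatives, as were scalings, pseudocounts, level minimums and left-out libraries. On recovered reads edgeR called 3763 genes higher and 3983 lower in GM-CSF. Scripts were tested on simulated data.

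Named were, in each type, the 3 genes with the highest mean, the 2 highest and 2 lowest culture folds, and any gene 2-fold apart between genotypes (0 were). In other lists they were the 2 genes with the highest mean and the 2 farthest from 0 in culture fold. Others are marked in the text. Python 3.11.15 and R 4.3.3 were used.

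The marker lists also covered GM-CSF culture genes (7 of 8 higher and 1 lower in GM-CSF by limma).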

Additional observations from a re-analysis of the deposited data

Results flagged for a closer look

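The db/db over db/+ ratio lay on opposite sides of 1 in the 2 cultures, with an interval that left out 1 in each, for 3 summed levels and 1 gene. For the sums these intervals are too narrow, as genes that share reads, such as Hist1h2bq and Hist1h2br, were added as if separate. In GM-CSF their lower ends were 1.007 for all histone genes, 1.036 for H2B and 1.008 for H4. The sum of all histone genes was at 1.03 in GM-CSF and 0.872 in M-CSF. The H2B sum was at 1.09 in GM-CSF and 0.908 in M-CSF, and the H4 sum at 1.05 in GM-CSF and 0.742 in M-CSF. Hist4h4, an H4 gene on its own on chromosome 6, was at 1.22 in GM-CSF and 0.745 in M-CSF. The rule was applied to the histone genes and their sums alone, so no share of all genes stands beside the 1 gene. With 1 library per group the difference between cultures was not tested.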

How the results depend on the processing

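The directions of all 4 summed ratios and of all 4 H4 sums held under the alternatives tried. With reads scaled by library total, the count of histone genes at least 2-fold lower in db/db GM-CSF than in db/db M-CSF was 45 in place of 29. This scaling also lowers the median of all genes in that comparison, by 0.36, and the share of all genes was not computed under it. On the log2 scale the sum of all histone genes, GM-CSF over M-CSF, was -0.61 in db/db and -0.84 in db/+ as deposited, -0.96 in db/db and -1.17 in db/+ by library total, -0.64 in db/db and -0.90 in db/+ with DESeq2 size factors, and -0.72 in db/db and -0.93 in db/+ without the top gene of each type. The db/db over db/+ sum in M-CSF was -0.20 as deposited and -0.22 with DESeq2 size factors. Between cultures by library total, Hist1h1c turned to -0.25 in db/+ and stood at -0.32 in db/db, and Hist2h2be at -0.25 in db/db. With 1 library left out and the other 3 fitted on culture alone, the median culture log2 fold of histone genes lay between -0.99 and -0.94. Over all genes it lay between 0.01 and 0.03. All 4 libraries fitted on culture alone gave 59 histone genes lower in GM-CSF, and 3672 of all 13642 genes. The count of histone genes was 47 without a variance trend, beside 2946 of all genes, and 49 with DESeq2, beside 2661. Intervals on single reads, added after seeing the data, put 8 in place of 3 genes above 1 and 4 in place of 0 below 1 between genotypes in GM-CSF, and 11 in place of 7 above 1 in M-CSF. Shares of all genes were not computed for single reads. No paired analysis was possible because each group holds 1 library, so replicate numbers pair nothing beyond the genotype term that the limma culture model already holds.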
